A study of Mus musculus with 16 samples.

Results

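The MOR28 cluster is a row of 6 odorant receptor genes, Olfr1507 to Olfr1512, on mouse chromosome 14. Its members were chosen by annotation: each gene had 1 feature on the array, so all 6 of 6 were measured, among 19505 genes in all and 1091 genes with an Olfr symbol (pseudogenes included). Expression was measured in olfactory mucosa of S100a5-tauGFP mice on a C57BL/6 background, animals in which a green fluorescent protein fused to tau reports the gene S100a5, so that fluorescence follows neuronal activity. All 24 mice, of both sexes and 7 to 12 weeks old, were housed singly for 40 h in chambers fed with clean air at 3.1 L per min, and after 26 h received 10 s pulses every 20 min of either filtered air (vehicle) or whiskey lactone (odor). The mucosa of 3 mice was pooled, and each of the 8 pools (4 per treatment) was dissociated and sorted into 2 fractions by fluorescence. This gave 4 groups of 4 arrays: vehicle titled GFP+, vehicle titled GFP-, odor titled GFP+ and odor titled GFP-. Titles and the labels' cell type entry oppose each other in all 16 arrays, and groups are called here by their titles. Differences between fractions are given as titled GFP+ minus titled GFP-, and every such sign turns if the cell type entry is the correct one, while the signs of odor minus vehicle within a fraction keep but belong to the other fraction.

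Odorant receptors are G protein-coupled receptors in the cilia of olfactory sensory neurons, and a mature neuron expresses a single allele of a single receptor gene. Receptor genes lie in clusters, and the choice of a gene within a cluster depends on enhancers bound by Lhx2, Ebf factors and Ldb1. The MOR28 cluster is the textbook example: the H element, an enhancer upstream of Olfr1507 (also called MOR28), acts in cis on the choice of its nearest receptors, Olfr1507, Olfr1508 (MOR10) and Olfr1509 (MOR83). S100a5, whose reporter was sorted on, is transcribed in these neurons with activity and codes for a protein that binds calcium. The assay asks in which fraction the neurons of each receptor are found, and whether odor moves them to the other.

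In the RefSeq annotation of GRCm38.p6 the cluster runs over 124 kb, from chr14:52372110 to 52495695. The symbols listed beside the genes place Olfr1507, Olfr1508 and Olfr1509 in receptor family MOR244 and Olfr1510, Olfr1511 and Olfr1512 in family MOR223. In order along the chromosome, Olfr1512 (MOR223-5) lies at chr14:52372110-52373051, Olfr1511 (MOR223-9) at chr14:52389815-52390771 and Olfr1510 (MOR223-6) at chr14:52409889-52410927. They are followed, after a gap of 39.5 kb, by Olfr1509 (MOR244-3) at chr14:52450393-52451402, Olfr1508 (MOR244-2) at chr14:52462721-52467461 and Olfr1507 (MOR244-1) at chr14:52489935-52495695. The other gaps between neighbours were 16.8, 19.1, 11.3 and 22.5 kb. The array files do not say which part of each gene the features cover, so a feature is taken to stand for the whole gene.

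RefSeq promoter windows (GRCm38.p6) were matched for 4 of the 6 genes, Olfr1508 to Olfr1511. The 250 bases before the annotated start of Olfr1508, Olfr1509 and Olfr1510 are shown because these are neighbours, each with a start outside its coding sequence. In the pair tests given below, Olfr1509 differed in its fraction difference from Olfr1508 and from Olfr1510. Olfr1508 and Olfr1510 were not told apart there. Capitals mark the motifs found on either strand out of 3 searched: TAATGA, a core recognised by homeodomain proteins such as Lhx2, TATAAA, the TATA box, and the Ebf palindrome.
Olfr1508, chr14:52467462-52467711, minus strand: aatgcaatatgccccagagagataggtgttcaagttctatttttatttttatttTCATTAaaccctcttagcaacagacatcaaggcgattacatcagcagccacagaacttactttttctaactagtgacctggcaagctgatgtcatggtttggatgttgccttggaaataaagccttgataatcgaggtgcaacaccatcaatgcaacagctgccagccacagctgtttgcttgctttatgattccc
Olfr1509, chr14:52450143-52450392, plus strand: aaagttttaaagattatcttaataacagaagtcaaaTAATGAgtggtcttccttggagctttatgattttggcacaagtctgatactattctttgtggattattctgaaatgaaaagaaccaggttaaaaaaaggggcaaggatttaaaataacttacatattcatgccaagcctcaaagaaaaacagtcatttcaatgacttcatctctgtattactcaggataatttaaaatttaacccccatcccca
Olfr1510, chr14:52410928-52411177, minus strand: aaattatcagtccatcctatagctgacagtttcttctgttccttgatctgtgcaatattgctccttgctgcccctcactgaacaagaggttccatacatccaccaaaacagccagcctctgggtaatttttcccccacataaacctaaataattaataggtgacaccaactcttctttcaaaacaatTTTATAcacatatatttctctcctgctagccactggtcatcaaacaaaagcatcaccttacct
The window of Olfr1508 holds TAATGA on the other strand (read as TCATTA), with its first base 196 bases before the gene start, and that of Olfr1509 holds it 214 bases before the start. Olfr1510 holds no TAATGA but has TATAAA on the other strand (read as TTTATA) 63 bases before the start. The window of Olfr1511 is not printed because its gene model starts with ATG, as do 686 of the 944 Olfr models (72.7%). That window holds TATAAA 70 bases before the start and, on the other strand (read as TTTATA), 45 bases before it. The Ebf palindrome was in none of the 4. Of all 944 Olfr windows, 25.1% hold TAATGA, 39.3% TATAAA and 0.4% the Ebf palindrome, against 8.8%, 13.0% and 0.8% of 27025 windows of all genes. The motifs do not overlap each other as printed, and a match describes letters only. Aligned pairwise, the windows of the 4 members were 51.4% to 60.2% identical, with 60.2% for Olfr1510 and Olfr1511, both of family MOR223, 59.5% for Olfr1509 and Olfr1510, of different families, and 50.9% to 57.8% for members against Olfr1513 outside the cluster.

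Values are log2 signals as deposited. The median over genes lay between 6.62 and 7.13 in the 16 arrays. The 5222 negative control features, which stand in for background, had medians of 4.98 to 5.59 and 95th percentiles of 9.09 to 10.11, and the brightest feature was at 19.09 to 19.24. S100a5, the gene of the reporter, was lower in the arrays titled GFP+ in 8 of 8 pools, by between 1.68 and 0.96 on the log2 scale (vehicle -1.23 ± 0.09, SE, limma adjusted p = 4.78e-07; odor -1.34 ± 0.09, adjusted p = 2.07e-07), which goes against the titles. Omp, a marker of mature olfactory sensory neurons, was among the most abundant transcripts, with group means of 18.54 to 18.68, and limma did not call it at its threshold of 0.05 in vehicle (-0.06 ± 0.05, adjusted p = 0.39) or odor pools (-0.14 ± 0.05, adjusted p = 0.0667), though its sign and call turn with scaling (0.36 in vehicle pools after centring on 18 mature neuron genes, -0.43 after median centring).

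Olfr1507 parted from its 5 neighbours in the sort. In arrays titled GFP+ it was far above background and in those titled GFP- it was within it. Olfr1509, Olfr1511 and Olfr1512 were lower in arrays titled GFP+, with readings at or near background in both fractions for Olfr1512 and in part of the arrays titled GFP- for the other two, and Olfr1508 and Olfr1510 were bright in both fractions. In the vehicle pools 1 member was higher and 4 were lower in arrays titled GFP+, and in the odor pools 1 was higher and 5 were lower. Centring each array on 18 mature neuron genes left 3 lower in both treatments, median centring made it 5 in vehicle pools, and the calls that turned were those of Olfr1508 and Olfr1510. Calls were common in this contrast: limma called 26.0% of all genes in the vehicle pools (12.3% higher, 13.6% lower) and 27.5% in the odor pools (12.8% and 14.7%), and of the Olfr genes 71.4% (23.8% and 47.6%) and 71.8% (23.1% and 48.7%). The members' count of calls, mostly lower, lies near this background of receptor genes. The median difference of the 6 members was -1.27 in vehicle and -1.22 in odor pools, beside -0.61 and -0.64 over all Olfr genes and -0.14 and -0.15 over all genes tested. In bulk fractions, fewer neurons that chose a receptor and less receptor RNA per neuron cannot be told apart.

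**Figure D1:**
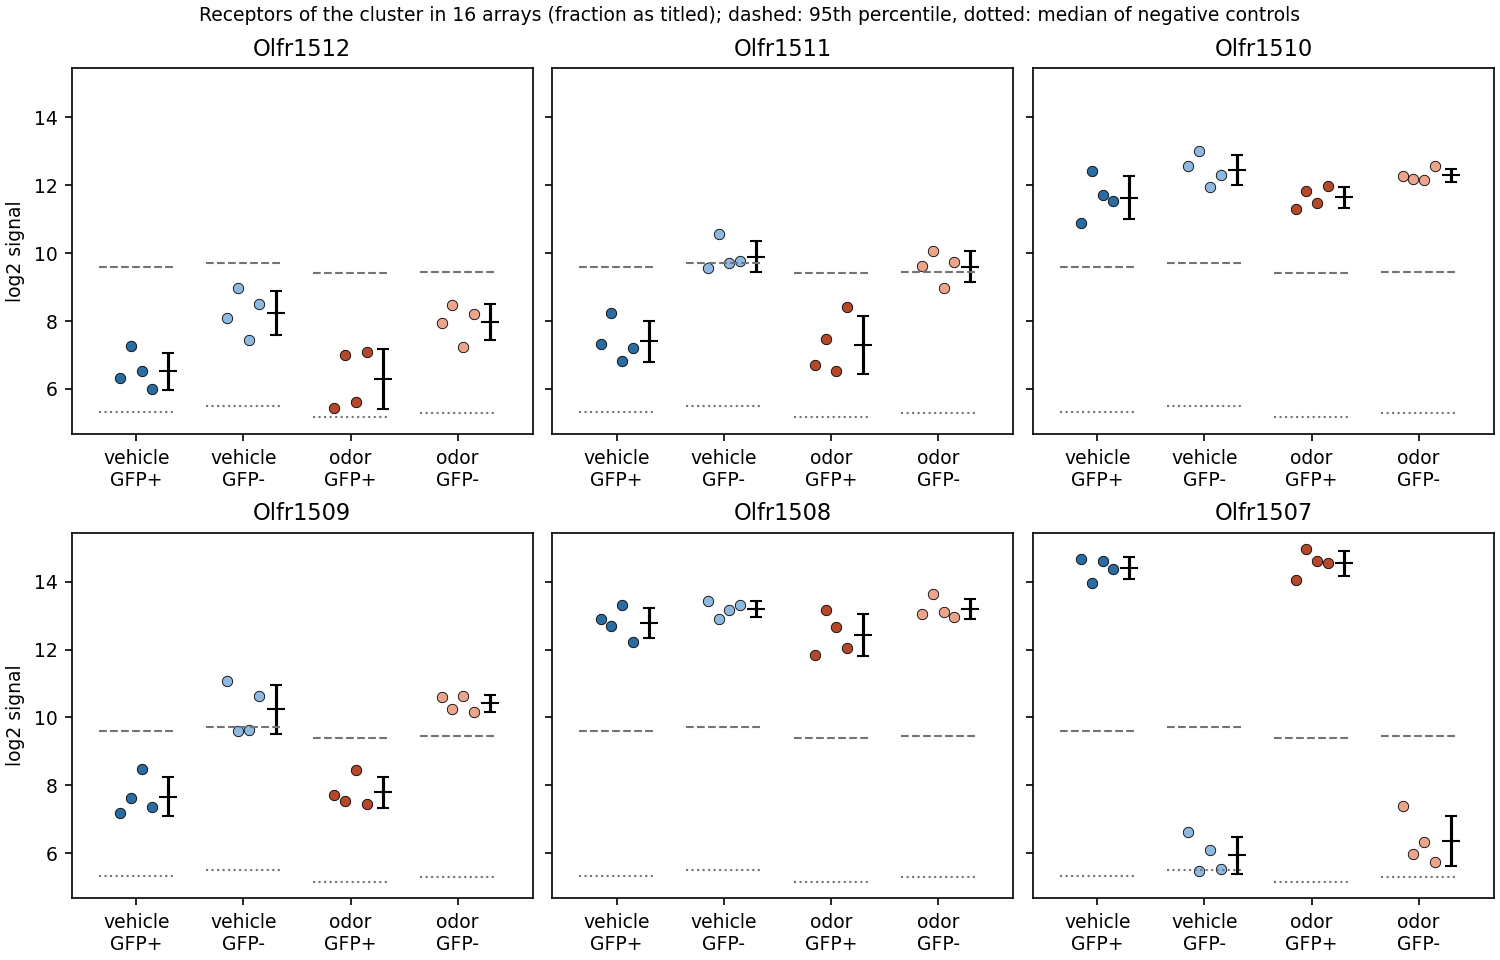
Log2 signal of the 6 receptors (one panel each) in the 16 arrays by group, with a point per array, the mean and the SD. Olfr1507 lies between 13.95 and 14.96 in all 8 arrays titled GFP+ and between 5.48 and 7.38 in all 8 titled GFP-, while Olfr1509, Olfr1511 and Olfr1512 lie lower in the arrays titled GFP+ and Olfr1508 and Olfr1510 lie above 10 in every array.

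Olfr1507, the MOR28 receptor, had log2 signals of 14.67, 13.95, 14.61 and 14.36 in the vehicle arrays titled GFP+ of pools 1 to 4 and 6.63, 5.48, 6.09 and 5.54 in those titled GFP-. In the odor pools 1 to 4 it had 14.06, 14.96, 14.61 and 14.56 in the arrays titled GFP+ and 7.38, 5.97, 6.34 and 5.75 in those titled GFP-. The fractions were far apart in every pool, and the value of 7.38 in odor pool 1 was the highest of the 8 arrays titled GFP-. The 8 arrays titled GFP- were all below the 95th percentile of the negative controls, and 2 of the 4 vehicle ones were at or below the negative control median, so the gene has only an upper bound there. The fitted difference was 8.46 ± 0.29 (SE, n = 4 pools, limma adjusted p = 2.13e-10) with vehicle and 8.18 ± 0.29 (n = 4 pools, limma adjusted p = 2.7e-10) with odor. Set against the 95th percentile of the negative controls instead of the dim readings, Olfr1507 in the GFP+ titled arrays was at least 25.7-fold higher with vehicle and at least 34.3-fold higher with odor. Across the 4 vehicle pools the difference ran from 8.03 to 8.82, and across the 4 odor pools from 6.68, in pool 1, to 8.99. It was the largest positive difference of all 1091 Olfr genes in both treatments. The receptors next in order, Olfr99 in vehicle pools (8.33 ± 0.33) and Olfr1297 in odor pools (8.16 ± 0.27), lay within 1 SE of it, so the first place is not separated from the second.

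Olfr1508, the MOR10 receptor whose gene lies 22.5 kb from Olfr1507, was bright in both fractions. In vehicle pools 1 to 4 it read 12.89, 12.69, 13.32 and 12.23 in arrays titled GFP+ and 13.44, 12.90, 13.16 and 13.30 in those titled GFP-. In odor pools 1 to 4 it read 11.83, 13.16, 12.68 and 12.05 in arrays titled GFP+ and 13.05, 13.64, 13.12 and 12.97 in those titled GFP-. The groups overlapped in both treatments, and vehicle pool 3 was the single pool of 8 in which Olfr1508 was higher in the array titled GFP+, by 0.16. The difference was -0.42 ± 0.17 in vehicle pools (95% interval -0.79 to -0.04, 1.34-fold), which limma did not call (adjusted p = 0.0972), and -0.77 ± 0.17 in odor pools (1.7-fold, limma adjusted p = 0.00516). The test of the difference between treatments did not pass (-0.35 ± 0.25, limma adjusted p = 0.999), so the call in odor pools alone does not show a change with odor. Without vehicle pool 3 the vehicle difference was -0.61 and passed (limma adjusted p = 0.0281). It was also called after centring each array on its median (-0.78, limma adjusted p = 0.00202), and after centring on 18 mature neuron genes neither treatment was called (0.0 in vehicle, limma adjusted p = 0.986; -0.37 in odor, limma adjusted p = 0.146).

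Olfr1509, the MOR83 receptor, was lower in the arrays titled GFP+ of all 8 pools. In vehicle pools 1 to 4 it read 7.18, 7.64, 8.48 and 7.37 in arrays titled GFP+ and 11.06, 9.60, 9.64 and 10.64 in those titled GFP-. In odor pools 1 to 4 it read 7.71, 7.55, 8.45 and 7.46 in arrays titled GFP+ and 10.61, 10.25, 10.63 and 10.16 in those titled GFP-. The fractions did not overlap in either treatment, as was so for 24.8% of all genes and 63.8% of Olfr genes in vehicle pools and for 26.3% and 63.1% in odor pools. The difference was -2.57 ± 0.33 (limma adjusted p = 6.65e-05) in vehicle and -2.62 ± 0.33 (limma adjusted p = 5.05e-05) in odor pools. All 8 arrays titled GFP+ and 2 of the 4 vehicle arrays titled GFP- were within the 95th percentile of the negative controls. Against that bound Olfr1509 was at least 2.02-fold higher in odor arrays titled GFP-. No fold is given for vehicle, where the higher group did not stand clear of background in every array. Single pools ranged from -3.88 (vehicle pool 1) to -1.16 (vehicle pool 3), while the odor pools stayed between -2.90 and -2.18.

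Olfr1510, the first of the MOR223 genes from the Olfr1507 side, was bright in both fractions and modestly lower in the arrays titled GFP+ of 8 of 8 pools. In vehicle pools 1 to 4 it read 10.89, 12.42, 11.71 and 11.53 in arrays titled GFP+ and 12.58, 13.01, 11.96 and 12.29 in those titled GFP-. In odor pools 1 to 4 it read 11.31, 11.83, 11.47 and 11.97 in arrays titled GFP+ and 12.27, 12.19, 12.15 and 12.57 in those titled GFP-. The vehicle groups overlapped, with vehicle pool 2 high in both fractions, and the odor groups did not. The difference was -0.82 ± 0.18 in vehicle (1.77-fold, limma adjusted p = 0.00483) and -0.65 ± 0.18 in odor pools (1.57-fold, limma adjusted p = 0.0185). The odor call was lost without odor pool 1 (-0.54, limma adjusted p = 0.0973) or odor pool 3 (-0.64, limma adjusted p = 0.0639), without the pool block (adjusted p = 0.0789) and after cyclic loess (-0.5, adjusted p = 0.0608). After centring on mature neuron genes neither treatment was called (-0.4, limma adjusted p = 0.0887, in vehicle and -0.25, limma adjusted p = 0.293, in odor).

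Olfr1511, the middle MOR223 gene, fell in the arrays titled GFP+ about as far as Olfr1509. In vehicle pools 1 to 4 it read 7.33, 8.25, 6.83 and 7.21 in arrays titled GFP+ and 9.55, 10.58, 9.71 and 9.77 in those titled GFP-. In odor pools 1 to 4 it read 6.72, 7.47, 6.54 and 8.42 in arrays titled GFP+ and 9.63, 10.06, 8.97 and 9.74 in those titled GFP-. The fractions did not overlap, and odor pool 4, with the highest reading in GFP+ titled arrays, had the smallest difference of the 8 pools (-1.31). The difference was -2.49 ± 0.22 in vehicle (limma adjusted p = 2.15e-06) and -2.31 ± 0.22 in odor pools (limma adjusted p = 4.03e-06). In each treatment 4 of 4 arrays titled GFP+ were within the 95th percentile of the negative controls. So were 2 of 4 vehicle and 1 of 4 odor arrays titled GFP-. No fold is given, because the higher group did not stand clear of background in every array.

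Olfr1512, the member farthest from Olfr1507, was dim throughout, and all 16 of its readings were within the 95th percentile of the negative controls. Its group means were 6.53 ± 0.55 (SD, n = 4) in vehicle and 6.29 ± 0.89 in odor arrays titled GFP+, against 8.25 ± 0.65 and 7.96 ± 0.53 in arrays titled GFP-. The groups did not overlap, and the gene was lower in the array titled GFP+ of 8 of 8 pools, by between 2.52 and 0.90. The fitted difference was -1.72 ± 0.26 in vehicle (limma adjusted p = 0.000276) and -1.67 ± 0.26 in odor pools (limma adjusted p = 0.000326), and no fold is given because neither group stood clear of background. Since a reading depends on a feature's probes, levels of different members were not ranked.

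**Figure D2:**
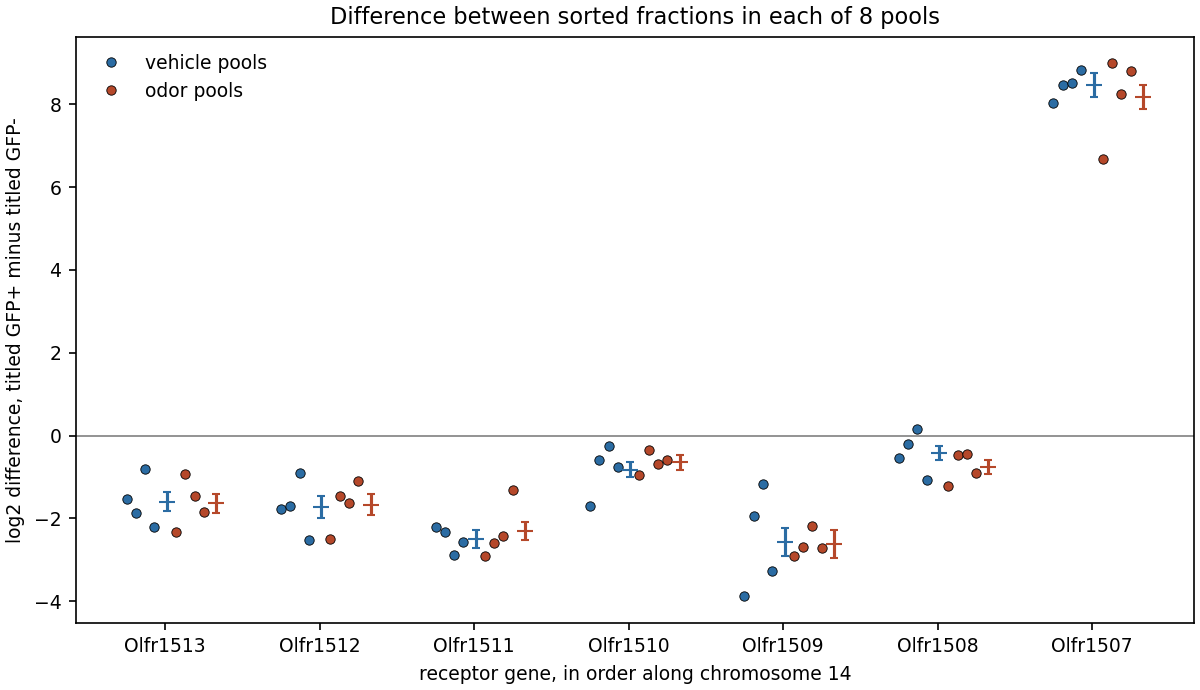
Log2 difference, titled GFP+ minus titled GFP-, of each member in each pool (points, vehicle and odor) with the fitted value and its SE. Olfr1507 lies between 6.68 and 8.99 above 0 in all 8 pools, Olfr1509, Olfr1510, Olfr1511 and Olfr1512 lie below 0 in all 8, and Olfr1508 lies above 0 in vehicle pool 3 only.

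Whether the 6 genes occupied different places in the sort was tested on the differences within pools. For each of the 15 pairs the fraction difference of one gene minus that of the other was taken in each of the 8 pools (exact two-sided sign-flip permutation test, smallest possible p 0.00781, Benjamini-Hochberg over the 15 pairs). The test passed for 13 pairs, each with the same sign in 8 of 8 pools (adjusted exact p = 0.00901). How often pairs of other Olfr genes pass was not computed. Since limma called 71.4% of Olfr genes between fractions in vehicle pools and 71.8% in odor pools, the count is not shown to be particular to the cluster. Olfr1507 exceeded Olfr1508 by 8.91 ± 0.70 (SD, n = 8 pools) and Olfr1509 by 10.92 ± 1.01, the neighbours that share its family and its enhancer. These sizes rest on readings within background in the dimmer fraction of Olfr1507 and Olfr1509, so they are fitted values and not measured folds. Olfr1512 was within background in both fractions and Olfr1511 in all arrays titled GFP+, so pairs that hold them carry the same limit. How far background sets the differences of those pairs was not tested. Olfr1508 in turn exceeded Olfr1509, its neighbour at 11.3 kb, by 2.0 ± 0.61. The pairs that did not pass joined genes of different families, as do most of the 15 pairs. Olfr1508 and Olfr1510 differed by 0.14 ± 0.51 (95% interval -0.28 to 0.57, adjusted exact p = 0.536), and Olfr1509 and Olfr1511 by -0.19 ± 1.07 (95% interval -1.09 to 0.71, adjusted exact p = 0.625). Order along the chromosome was not the order of the differences: from Olfr1512 to Olfr1507 the vehicle values ran -1.72, -2.49, -0.82, -2.57, -0.42 and 8.46. With the 4 pools of a single treatment the exact test cannot reach 0.05, so it was run over both treatments together. That takes the 8 pools as independent, although signals of same-numbered vehicle and odor pools varied alike within a fraction. Whether their fraction differences also varied alike was not tested. Flipping signs by the 4 shared replicate numbers cannot reach 0.05 either, so the 13 passes depend on the pools being independent.

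Whiskey lactone moved none of the 6 receptors past the limma threshold. In the arrays titled GFP+ the odor minus vehicle difference ran from -0.35 ± 0.25 (Olfr1508, 95% interval -0.87 to 0.17) to 0.15 ± 0.32 (Olfr1507, -0.52 to 0.82). In those titled GFP- it ran from -0.3 ± 0.36 (Olfr1511) to 0.43 ± 0.32 (Olfr1507, -0.24 to 1.09). The groups overlapped in all 12 of these comparisons, while in arrays titled GFP+ 2.38% of all genes and 3.39% of Olfr genes did not overlap, and in those titled GFP- 4.45% and 2.75%. None of the 12, nor any of the 6 tests that follow, had an unadjusted limma p under 0.05. The change of the fraction difference with odor was -0.28 ± 0.41 for Olfr1507 (95% interval -1.15 to 0.6), -0.35 ± 0.25 for Olfr1508 (-0.88 to 0.18), -0.05 ± 0.47 for Olfr1509 (-1.07 to 0.97), 0.18 ± 0.26 for Olfr1510 (-0.39 to 0.74), 0.18 ± 0.32 for Olfr1511 (-0.5 to 0.87) and 0.05 ± 0.37 for Olfr1512 (-0.75 to 0.86), with a limma adjusted p of 0.999 for each. The widest of these intervals were those of Olfr1507 and Olfr1509. Limma called 0.00513% of all genes in the change of the fraction difference and in the arrays titled GFP+ (1 gene each, or 0.0917% of Olfr genes) and 0.0% in those titled GFP-, where 1147 genes had an unadjusted p under 0.05. With the replicate number as a block 14 genes were called in arrays titled GFP-, none of them a member.

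Among the other receptors of chromosome 14, 1 changed with odor. Olfr221, which lies 336.0 kb before the cluster, was higher in GFP+ titled arrays of vehicle pools (1.43 ± 0.40, limma adjusted p = 0.018) and lower in those of odor pools (-4.38 ± 0.40, limma adjusted p = 2.19e-06), a change of -5.81 ± 0.56 (limma adjusted p = 0.00306). Its readings were within the 95th percentile of the negative controls in 4 of 4 odor arrays titled GFP+ and 3 of 4 vehicle arrays titled GFP-, so as bounds it was at least 1.45-fold higher with vehicle and at least 4.8-fold lower with odor. Olfr1513, the receptor nearest to the cluster, 22.1 kb before Olfr1512, had -1.6 ± 0.23 (limma adjusted p = 0.000172) and -1.64 ± 0.23 (limma adjusted p = 0.000126), beside -1.72 and -1.67 for Olfr1512. Olfr49, the nearest measured receptor on the Olfr1507 side at 1786.2 kb, was higher (1.17 ± 0.18, limma adjusted p = 0.000358, and 1.02 ± 0.18, limma adjusted p = 0.000993). Of the 33 Olfr genes of chromosome 14 outside the cluster, 6 were higher and 21 lower in vehicle pools and 5 and 23 in odor pools, with medians of -1.6 and -1.98. The next positive differences on the chromosome after that of Olfr1507 were those of Olfr728 (6.75 ± 0.28 and 6.15 ± 0.28) and Olfr750 (4.1 ± 0.34 and 4.33 ± 0.34).

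**Figure D3:**
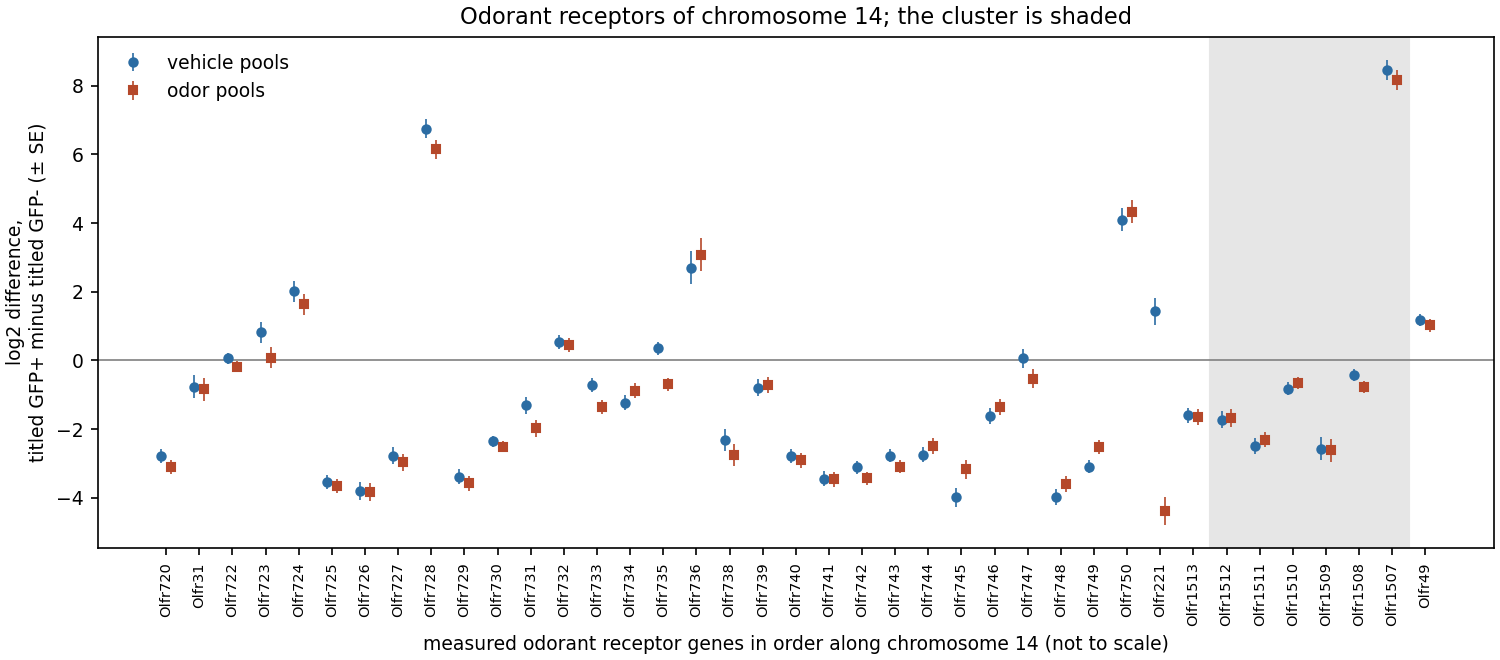
Log2 fraction difference of the 39 measured Olfr genes of chromosome 14 in chromosome order, vehicle and odor pools, with SE; members of the cluster are marked. Most receptors lie below 0, Olfr1507 is the highest at 8.46 and 8.18, and Olfr221 is positive in vehicle pools and at -4.38 in odor pools.

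Of the 5 nearest measured genes on each side that are not receptors, 10 in all, 1 was higher and 1 lower in vehicle pools and 1 and 0 in odor pools, with medians of -0.1 and -0.11. These counts turn with scaling: median centring gave 1 higher and 8 lower in both treatments, and mature neuron centring 5 and 0 in vehicle and 4 and 0 in odor pools. On the Olfr1512 side, Sall2, a zinc finger factor gene 43.4 kb away, was at or below the negative control median in both fractions. Beyond it Rab2b was lower with vehicle (-0.43 ± 0.10, limma adjusted p = 0.00619) and not called with odor (-0.22, adjusted p = 0.121), a call lost after cyclic loess (-0.3, adjusted p = 0.0515) and after mature neuron centring (-0.01, adjusted p = 0.962), and Mettl3, Tox4 and Chd8 were not called. On the Olfr1507 side the next such gene on the array, Dad1, starts 1739.8 kb away, across the T cell receptor alpha locus. Slc7a7, an amino acid transporter gene, was higher (1.42 ± 0.25, limma adjusted p = 0.000899, and 1.23 ± 0.25, limma adjusted p = 0.00245), though it was at or below the negative control median in the GFP- titled arrays of both treatments, so the size is not measured.

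In the order of all 1091 Olfr genes from the highest fraction difference, Olfr1507 was at place 1 in both treatments. Olfr1508 was at places 500 and 574 (vehicle and odor), Olfr1510 at 599 and 547, Olfr1512 at 795 and 770, Olfr1511 at 928 and 905 and Olfr1509 at 938 and 956. The neighbours of these 5 in that order differed from them by at most 0.02, less than any SE. By Pearson r over the 16 arrays, the receptors most like Olfr1507 were Olfr1297 (0.995, chromosome 2), Olfr116 (0.995, chromosome 17) and Olfr1228 (0.993, chromosome 2). Those most like Olfr1509 were Olfr1232 (0.96), Olfr740 (0.959, on chromosome 14) and Olfr166 (0.955). For Olfr1510 they were Olfr1086 (0.922), Olfr243 (0.915) and Olfr666 (0.914), and for Olfr1511 Olfr165 (0.971), Olfr970 (0.965) and Olfr860 (0.965). For Olfr1512 they were Olfr410 (0.965), Olfr165 (0.961) and Olfr1052 (0.952). None of these most-alike receptors was a member of the cluster, and 1 of the 15 places was held by a receptor of chromosome 14. Since the 1091 Olfr genes hold only 6 members and 33 other receptors of chromosome 14, such low counts say little about likeness within the cluster. These values are descriptions: the arrays share the sort, and r over both fractions mostly reflects the fraction difference.

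**Figure D4:**
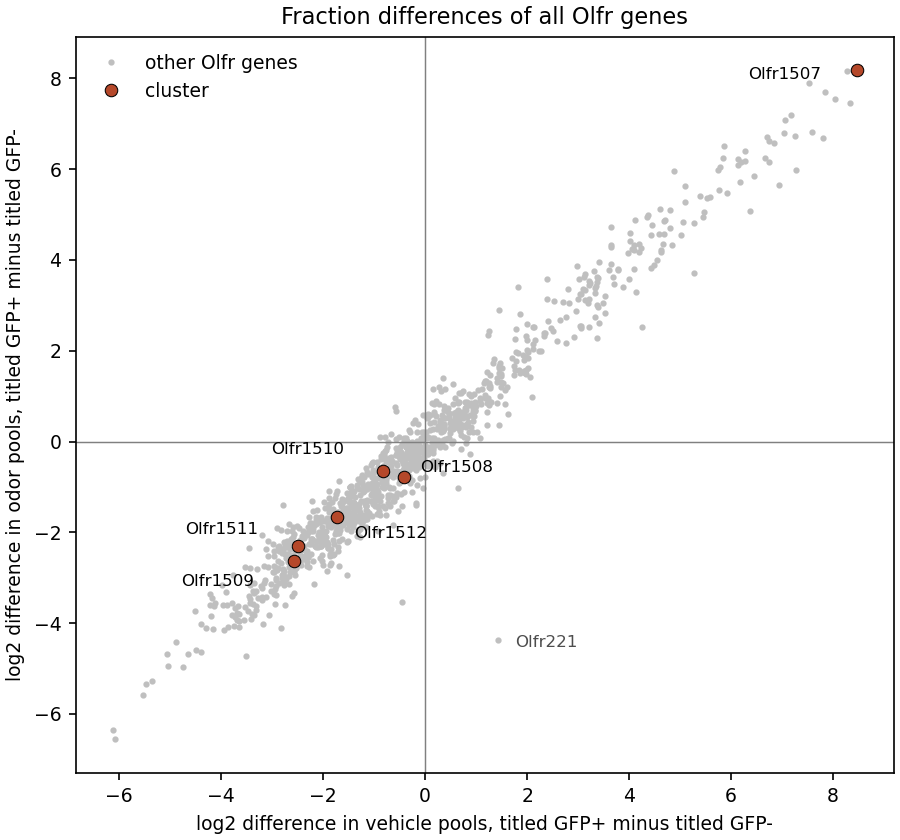
Fraction difference in odor pools against that in vehicle pools (log2) for the 1091 Olfr genes, with the 6 members marked. Olfr1507 is at the upper right end at 8.46 and 8.18, Olfr1508 and Olfr1510 lie near the middle, and Olfr1509, Olfr1511 and Olfr1512 lie among the receptors lower in arrays titled GFP+.

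Apart from the sort, some pairs of members varied together or oppositely from pool to pool, a pattern that did not pass when same-numbered pools were kept together. After subtracting the group mean, the 2 fractions of a pool were averaged into a single deviation per pool, and the 15 pairs of members were correlated over the 8 pools (exact permutation of pools within treatment, 576 arrangements, two-sided, Benjamini-Hochberg over 15 pairs). This comparison was chosen after the values had been seen. The neighbours Olfr1511 and Olfr1512 varied together: Olfr1511 deviated by -0.22, 0.76, -0.38 and -0.16 in vehicle pools 1 to 4 and by -0.27, 0.32, -0.69 and 0.64 in odor pools 1 to 4. Olfr1512 deviated by -0.19, 0.73, -0.41 and -0.14 in the vehicle pools and by -0.43, 0.61, -0.71 and 0.52 in the odor pools. Pearson r was 0.97 (exact p = 0.00521, adjusted p = 0.0304), Spearman rho 0.95 (exact p = 0.00521, adjusted p = 0.0365), and r was 0.97 without the 2 pools farthest from the median. Every reading of Olfr1512, and every reading of Olfr1511 in arrays titled GFP+, was within the 95th percentile of the negative controls. Their r is therefore limited by readings within background. Olfr1510, of the same family, followed Olfr1511 (r = 0.88, exact p = 0.0104, adjusted p = 0.0304; rho = 0.79, exact p = 0.033, adjusted p = 0.0744), but r was 0.63 without the 2 farthest pools.

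Olfr1509 ran against the MOR223 genes, with the same limit from readings within background. It deviated by 0.17, -0.33, 0.11 and 0.05 in vehicle pools 1 to 4 and by 0.06, -0.20, 0.44 and -0.29 in odor pools 1 to 4, low in the pools in which Olfr1511 was high. Its r was -0.97 with Olfr1511 (exact p = 0.00521, adjusted p = 0.0304; rho = -0.93, exact p = 0.00868, adjusted p = 0.0365). It was -0.94 with Olfr1512 (exact p = 0.0122, adjusted p = 0.0304; rho = -0.88, exact p = 0.0104, adjusted p = 0.0365). It was -0.8 with Olfr1510 (exact p = 0.00694, adjusted p = 0.0304; rho = -0.86, exact p = 0.0122, adjusted p = 0.0365). Without the 2 farthest pools these were -0.96, -0.91 and -0.97. Olfr1507 was also opposed to Olfr1510 (r = -0.84, exact p = 0.00868, adjusted p = 0.0304; rho = -0.95, exact p = 0.00347, adjusted p = 0.0365; r = -0.7 without the 2 farthest pools). By Pearson r 6 of the 15 pairs passed and by Spearman rho 5, while Olfr1508 passed with none. Before adjustment 7 of the 15 had an exact permutation p under 0.05 by Pearson r, as had 6.69% of all 594595 pairs of Olfr genes, whose median r was 0.06. These arrangements treat the pools of a treatment as free to exchange, although same-numbered vehicle and odor pools varied alike (r of 0.198 to 0.279 over all genes in arrays titled GFP-). Permuting whole replicate numbers leaves 24 arrangements and a smallest exact p of 0.0417; 4 of the 15 pairs reached it, and 0 passed after adjustment (smallest adjusted p = 0.156). The largest shared deviation was in vehicle pool 2, in which Olfr1510, Olfr1511 and Olfr1512 were 0.67 to 0.76 above their group means. A pool holds 3 mice, the 4 pools of a treatment are too few for an r of their own, and differences between mice and between sorts were not tested.

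**Figure D5:**
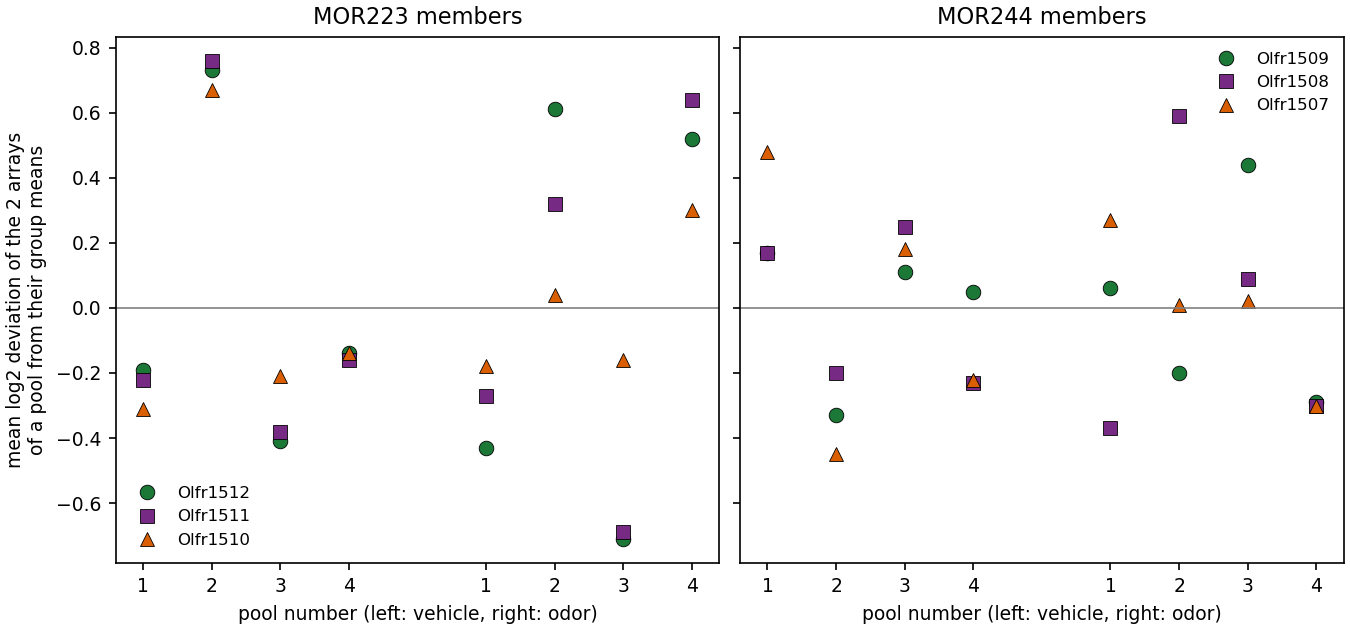
Deviation of each member from its group mean, averaged over both fractions of a pool (log2), in the 8 pools. Olfr1511 and Olfr1512 are high in vehicle pool 2 (0.76 and 0.73) and odor pool 4 (0.64 and 0.52) and low in odor pool 3 (-0.69 and -0.71), and Olfr1509 moves the other way.

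The counts of regulators of receptor choice depended on scaling. Of 28 listed, 26 were measured, with 3 higher and 5 lower in GFP+ titled arrays of vehicle pools and 2 and 6 in odor pools. Median centring gave 1 higher and 19 lower in vehicle pools, cyclic loess 4 and 4, and mature neuron centring 18 and 0. Lbr, a nuclear envelope protein that falls silent as receptor genes aggregate in the neuron's nucleus, was higher (1.89 ± 0.24, limma adjusted p = 4.68e-05) and stayed called under all 3 scalings, between 1.52 and 2.31 in vehicle pools. The part of other cells, whose markers are given below, in the Lbr difference was not tested. Higher in vehicle pools were also the heterochromatin protein gene Cbx5 (0.54 ± 0.13, limma adjusted p = 0.00801) and the histone methyltransferase gene Ehmt1 (0.38 ± 0.13, limma adjusted p = 0.0473), neither of them called after median centring (0.17 and 0.02). In odor pools Cbx5 was called (0.64, limma adjusted p = 0.00237) and Ehmt1 was not (0.12, limma adjusted p = 0.534). Emx2, a homeodomain factor of these neurons, was lower in vehicle pools (-0.46 ± 0.11, limma adjusted p = 0.00664), as was Ebf3 (-0.33 ± 0.07, limma adjusted p = 0.00433), and neither was called after mature neuron centring (-0.04 and 0.09). With odor Emx2 was called (-0.32, limma adjusted p = 0.0406) and Ebf3 was not (-0.16, limma adjusted p = 0.116). Lhx2 and its partner Ldb1, which act at receptor enhancers, were not called in vehicle pools, with differences of 0.0 ± 0.06 and -0.05 ± 0.07, but were called lower after median centring (-0.37 and -0.42) and higher after mature neuron centring (0.42 and 0.37).

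Markers of other cells moved with the sort, and the part of these cells in the differences of the members and of the receptor choice regulators was not tested. Of 11 neutrophil genes all 11 were higher in arrays titled GFP+ in both treatments (median 8.37), and their summed level, as log2, was 18.13 to 19.73 in arrays titled GFP+ and 9.9 to 11.67 in those titled GFP-, where Mmp9 and Camp were at or below the negative control median. Macrophage genes were higher for 8 of 8 in vehicle and 7 of 8 in odor pools (summed level 15.14 to 17.1 against 8.66 to 10.08). Microvillar cell genes were higher for 7 of 7, sustentacular cell genes for 6 of 7, immature neuron genes for 6 of 10 (5 higher and 4 lower after median centring) and progenitor genes for 4 of 6 in both treatments, and T lymphocyte genes for 3 and 2 of 6. Among the genes so called, Chat (microvillar) and Cd3g (T lymphocyte) were at or below the negative control median in every group, so their calls lie within background. Of the 18 mature neuron genes 0 were higher and 11 were lower in both treatments (0 and 18 in vehicle pools after median centring, 0 and 9 after cyclic loess), with a summed level of 20.88 to 21.03 in arrays titled GFP+ and 21.1 to 21.17 in those titled GFP-. None of these lists had a gene called in the odor comparisons or in the change with odor.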

How the data were processed

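Signals of 28846 array features in 16 arrays were analysed. The deposited values are log2 signals. Affymetrix Expression Console is the tool named in the submitters' processing notes, without a version or settings. Of the features, 19572 had 1 gene symbol (0 had several), all matched to RefSeq by gene number, and the brightest feature stood for a gene, which left 19505 genes. No further normalization was applied. limma 3.58.1 (R 4.3.3) with a variance trend was fitted to all 16 arrays, with pool as a fixed block for fraction contrasts and a random block (correlation 0.164) for odor contrasts, and p-values were adjusted by Benjamini-Hochberg over all genes (threshold 0.05). The fit was tested on simulated data. For fraction contrasts p-values measure the spread of the difference between fractions from pool to pool, and for odor contrasts the spread between pools of 3 mice. The number of arrays limits the precision.

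Vehicle and odor pools share replicate numbers, which the labels do not tie to a day or litter. Deviations of same-numbered pools from group means correlated at 0.198 to 0.279 in arrays titled GFP- (all 4 over 0.1) and at 0.0787 to 0.41 in those titled GFP+ (3 of 4), so the replicate number entered as a block in an alternative fit only. Named genes were the members, S100a5 and Omp, the 3 Olfr genes most like each member called in both fraction contrasts, rank neighbours, the nearest receptors and 10 flanking genes, and up to 3 called genes with the largest differences per list; Olfr221 and the receptors of chromosome 14 singled out were added after their values were seen. Members and lists were chosen with earlier results of these data known. Alternatives covered scaling, block, dim genes, variance prior, feature choice and leaving out each pool.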

Additional observations from a re-analysis of the deposited data

How the results depend on the processing

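In recalculations of the members' fraction differences, 182 kept their direction and their side of the threshold, 7 lost a call, 2 gained one and 1 turned sign. Olfr1507 kept 7.8 to 8.88 over all scalings, blocks and filters tried, and 7.92 to 8.69 when a pool was left out. Centring on 18 mature neuron genes left 3 members lower in odor pools in place of 5, and 3 in vehicle pools in place of 4, and took Olfr1508 to 0.0 in vehicle pools. Scaling moved the median of all genes from -0.14 and -0.15 (vehicle and odor) to -0.51 and -0.53 with median centring, -0.02 in both with cyclic loess, and 0.28 and 0.24 with mature neuron centring; higher and lower calls over all genes in vehicle pools were 2406 and 2658, 1818 and 12539, 2792 and 1411, and 6039 and 570 in turn. The cause was not tested. The members' odor effects turned sign in 30 recalculations, none past the threshold. Olfr1510 in arrays titled GFP+ turned to -0.04 with median centring and -0.07 with mature neuron centring, and Olfr1508 minus Olfr1510 was -0.12 in odor pools alone. Leaving out a pool, the change with odor ran from -0.54 to 0.23 for Olfr1507, -0.49 to 0.41 for Olfr1509, -0.12 to 0.37 for Olfr1510, -0.15 to 0.38 for Olfr1511 and -0.21 to 0.33 for Olfr1512. In arrays titled GFP+ the odor effect ran from -0.09 to 0.4 for Olfr1509, -0.24 to 0.27 for Olfr1510, -0.49 to 0.16 for Olfr1511 and -0.5 to 0.05 for Olfr1512, and in those titled GFP- from -0.15 to 0.08 for Olfr1508, -0.03 to 0.46 for Olfr1509 and -0.33 to 0.01 for Olfr1510. Olfr1509 minus Olfr1511 ran from -0.46 to 0.02, and 13 pairs passed in every recalculation with a test. Of the 6 pool-level correlations that passed, 0 passed when whole replicate numbers were permuted, an alternative chosen after seeing the data. With the replicate number as a block, no member was called (Olfr1507 in arrays titled GFP- 0.43, limma adjusted p = 0.759), while calls over all genes were 14 in place of 0 in arrays titled GFP-, 12 in place of 1 in those titled GFP+ and 2 in place of 1 in the change with odor. Signals within the 95th percentile of the negative controls limit Olfr1512 in all 16 arrays and Olfr1507, Olfr1509 and Olfr1511 in their dimmer fraction.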
